A study of Homo sapiens with 6 samples.

Results

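Transcripts of 8 cell-surface adhesion molecules were followed in RCC4, a human line grown from clear cell renal cell carcinoma, with and without inflammatory cytokines. The 8 genes were the 5 intercellular adhesion molecules ICAM1 to ICAM5, VCAM1, ALCAM and F11R. They were picked by symbol, and all 8 had a row among the 61541 genes listed. One group of 3 cultures was labelled untreated, and the other 3 were exposed for 24 h to interferon gamma (IFNγ, 1000 U/mL) and tumour necrosis factor (TNF, 25 ng/mL) together. All 6 cultures were the same line in the same serum-containing medium, with 3 flasks behind each biological replicate, so the groups speak for a single tumour line grown without leukocytes or endothelium. Poly(A) RNA was read by direct RNA nanopore sequencing, in which native RNA strands pass through the pore from the 3′ end without amplification, and the values are reads counted per gene. Levels are given as CPM, the counts scaled to a common library size after TMM normalisation.

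Leukocytes leave the blood by rolling on, sticking to and crossing the vessel wall, and they hold on to epithelial and tumour cells with the same receptors. ICAM1, ICAM2 and ICAM3 are immunoglobulin superfamily ligands of the leukocyte β2 integrin LFA-1, and VCAM1 is the ligand of the α4β1 integrin VLA-4. ICAM1 and VCAM1 are known for being switched on by TNF through NF-kappaB, and ICAM1 also by IFNγ, whereas ICAM2 is typical of resting endothelium and ICAM3 of resting leukocytes. ICAM4 is the Landsteiner-Wiener blood group antigen of red cells, ICAM5 a protein of forebrain neurons, ALCAM (CD166) a ligand of the T cell receptor CD6, and F11R (JAM-A) a tight junction protein.

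The upstream sequences of ICAM1 and VCAM1, both called higher in treated cells, and of ICAM4 are shown first. ICAM4 was higher on few counts but fell below the filter on low counts and was untested. NF-kappaB, STAT proteins and interferon regulatory factors are known regulators of ICAM1 and VCAM1. The sequences come from RefSeq's promoter windows on GRCh38.p14, which held 6 of the 8 genes. Each is on the plus strand, 5′ to 3′, and ends at the base before the gene start in the count files. The regions are chr19:10270870-10271092 for ICAM1, chr1:100719492-100719741 for VCAM1 and chr19:10286705-10286954 for ICAM4. Capitals mark matches to 4 motifs searched on both strands, namely GGGNNTNCC and GGAANTTCC for NF-kappaB sites, TTCNNNGAA for the STAT site called GAS, and, for the interferon regulatory factor element, GAAA followed by any pair of bases and GAAA again.
ICAM1: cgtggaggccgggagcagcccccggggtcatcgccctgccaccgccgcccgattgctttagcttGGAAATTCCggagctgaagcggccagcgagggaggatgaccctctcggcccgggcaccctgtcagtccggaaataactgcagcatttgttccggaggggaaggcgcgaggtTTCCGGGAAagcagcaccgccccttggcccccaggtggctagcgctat
VCAM1: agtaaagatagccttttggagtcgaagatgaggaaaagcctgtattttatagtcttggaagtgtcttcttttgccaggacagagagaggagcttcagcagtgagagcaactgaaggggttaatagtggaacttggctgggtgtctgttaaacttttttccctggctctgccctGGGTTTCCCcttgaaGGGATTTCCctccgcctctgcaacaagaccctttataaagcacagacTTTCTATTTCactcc
ICAM4: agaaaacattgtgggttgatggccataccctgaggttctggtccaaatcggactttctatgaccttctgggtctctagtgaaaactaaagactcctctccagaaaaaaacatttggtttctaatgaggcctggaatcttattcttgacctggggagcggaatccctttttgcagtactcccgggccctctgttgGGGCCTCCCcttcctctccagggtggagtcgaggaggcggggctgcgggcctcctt

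The ICAM1 window held 1 match to GGAANTTCC and 1 to the GAS letters. The VCAM1 window held 2 matches to GGGNNTNCC and, close to the start, 1 to the interferon regulatory factor element on the opposite strand. The ICAM4 window held 1 match to GGGNNTNCC. In the 250 bases upstream of 35116 RefSeq start sites, GGGNNTNCC occurred in 18.2%, GGAANTTCC in 0.826%, the GAS letters in 6.57% and the interferon regulatory factor letters in 3.02%. A match describes letters in a window and does not show that a factor binds there. Of genes not past the test, ICAM3 had 3 windows, and only 1 of them held a match, to GGGNNTNCC on the opposite strand. ALCAM had no match to any of the 4 motifs.

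ICAM1 was the member with the largest change and became by far the most counted of the 8. ICAM1 (ENSG00000090339; GRCh38 chromosome 19, 10271093 to 10286615, plus strand) had 81, 93 and 168 counts in untreated replicates 1, 2 and 3, against 4450, 4499 and 4610 in treated replicates 1, 2 and 3. In CPM these were 21.1, 23.9 and 38.1 against 1279, 1011 and 1309. The lowest treated library thus stood far above the highest untreated one, and untreated replicate 3 was the highest of its group. The group means were 27.7 ± 9.09 and 1199 ± 164.1 CPM (SD, n = 3 each), a 43.1-fold rise. The log2 fold change was 5.43 (SE 0.28), and the quasi-likelihood test of edgeR, Benjamini-Hochberg adjusted over all genes tested, gave a p of 6.43e-06. Of all tested genes, 0.735% had a larger log2 fold change, and ICAM1 ranked 132 among all genes by its treated level.

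VCAM1 was also called higher, at a far lower level. VCAM1 (ENSG00000162692; chromosome 1, 100719742 to 100739045, plus strand) had 1, 0 and 2 counts in the untreated replicates and 11, 15 and 14 in the treated ones. The means were 0.238 ± 0.227 and 3.50 ± 0.422 CPM (SD, n = 3 each), and the groups did not overlap. Over the group, 40 treated against 3 untreated counts gave a ratio of 14.1, with an exact binomial 95% interval from 4.50 to 71.4 that covers counting error alone. The edgeR adjusted p was 0.0081 with a fitted log2 fold change of 3.67 (SE 0.65), which became 4.44 without untreated replicate 3. VCAM1 passed the filter on low counts through its treated libraries alone, so a gene with this pattern had to differ in order to be tested. Its edgeR adjusted p was closest to the threshold without treated replicate 3, at 0.0482.

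**Figure D1:**
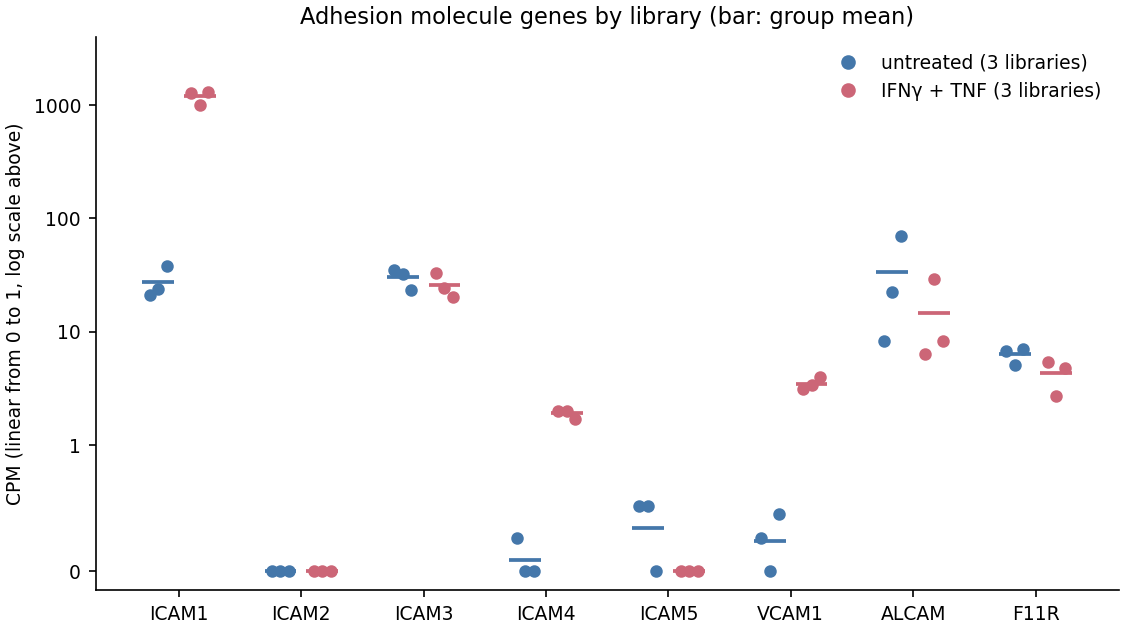
CPM of the 8 adhesion molecule genes in each library (points) with the group mean (bars), on an axis that is linear from 0 to 1 CPM and logarithmic above. ICAM1 lay between 21.1 and 38.1 CPM in untreated and between 1011 and 1309 CPM in treated libraries, VCAM1 and ICAM4 were also separated but at a few CPM, and the points of ICAM3, ALCAM and F11R overlapped between groups.

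Among the other ICAM genes, only ICAM4 separated the groups in every library, and it did so on few counts. Such separation was common, at 25.9% of tested genes, a share that does not include ICAM4 or other genes below the filter. ICAM4 (ENSG00000105371; chromosome 19, 10286955 to 10288522, plus strand), which starts 339 bases after the end of ICAM1, had 1, 0 and 0 counts without cytokines and 7, 9 and 6 with them. That is 22 against 1 count, a ratio of 23.3 with an exact binomial 95% interval from 3.77 to 962.1. It fell below the filter and was therefore untested in the fit over 10067 genes. With a filter of 1 CPM in 3 libraries it was called higher (log2 fold change 4.10, edgeR adjusted p 0.0158), but it met that filter through its treated libraries alone. Per 1000 ICAM1 counts there were 1.62 ICAM4 counts in treated and 2.92 in untreated libraries, the latter from 1 ICAM4 count. Whether reads running on from ICAM1 contribute to the ICAM4 counts was not tested.

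ICAM3, the leukocyte ICAM, was counted in every library and did not pass the test. ICAM3 (ENSG00000076662; chromosome 19, 10333776 to 10339661, minus strand) had 134, 126 and 103 untreated and 114, 108 and 71 treated counts. The means were 30.2 ± 6.09 and 25.7 ± 6.43 CPM (SD, n = 3 each). The log2 fold change was -0.23, with a 95% interval from -0.82 to 0.35 and an edgeR adjusted p of 0.735. PTPRC, the pan-leukocyte surface phosphatase CD45, had 0 counts in all 6 libraries.

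The neuronal ICAM5 and the endothelial ICAM2 were at or under the detection limit. ICAM5 (ENSG00000105376; chromosome 19, 10289952 to 10296778, plus strand) had 2, 2 and 0 untreated counts and none in any treated library. ICAM2 (ENSG00000108622; chromosome 17, 64002594 to 64020634, minus strand) had 0 counts in all 6. A count of 0 allows up to 3 counts, or between 0.674 and 0.862 CPM depending on the library, and these limits cover counting error alone. No exon of another gene on the same strand covers the exons of ICAM1 to ICAM5, VCAM1 or ALCAM.

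ALCAM varied more between replicates than between groups. ALCAM (ENSG00000170017; chromosome 3, 105366909 to 105576900, plus strand) had 32, 87 and 307 counts in untreated replicates 1, 2 and 3 and 22, 130 and 29 in treated replicates 1, 2 and 3. Its CPM thus ran from 8.34 to 69.6 in untreated and from 6.32 to 29.2 in treated cells, with untreated replicate 3 highest of all. The means were 33.4 ± 32.1 and 14.6 ± 12.7 CPM (SD, n = 3 each). The log2 fold change was -1.18 (SE 0.76), with a 95% interval from -2.89 to 0.54 and an edgeR adjusted p of 0.475. Without untreated replicate 3 the log2 fold change was -0.06, and without treated replicate 2 it was -2.14. With no filter beyond 1 count in any library, ALCAM was called lower (edgeR adjusted p 0.0027), in a fit whose estimated prior degrees of freedom were infinite and which therefore gave each gene the spread of the trend in place of its own.

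The genes with the profile most like ALCAM over the 6 libraries were read out next. They share the high and low replicates of ALCAM by selection, so this likeness is no result. This comparison was chosen after the ALCAM values were seen. Among 6743 other genes averaging 10 CPM or more, the highest Pearson correlations of log2 CPM were 0.998 for EID1 and 0.99 for PTPN11, the phosphatase SHP2. HNRNPH3 (0.989), EIF3E (0.989) and CCNC (0.989) followed, and none of the 5 passed the test between groups. All libraries share their depth and normalisation across genes, so these values are descriptions. ITGB1, the β1 integrin chain that pairs with α4 to bind VCAM1, had 107, 390 and 1035 untreated and 134, 637 and 428 treated counts, and did not pass the test either (edgeR adjusted p 0.905). On the second principal component of log2 CPM, which held 27.1% of the variance, untreated replicates 1, 2 and 3 scored 35.3, 7.3 and -49.5, and treated replicates 1, 2 and 3 scored 34, -17.9 and -9.21. The part of this component in the ALCAM values was not tested.

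**Figure D2:**
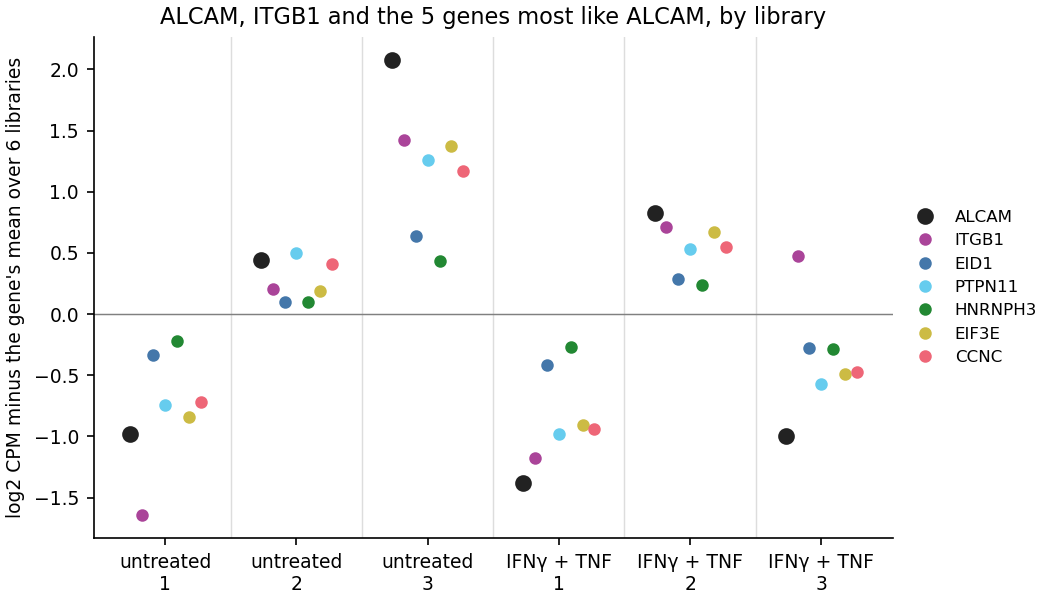
Log2 CPM of ALCAM, ITGB1 and the 5 genes most like ALCAM in each library, as the difference from each gene's mean over the 6 libraries. All 7 genes were lower in replicate 1 of both groups than in replicate 2 of the same group, and all were highest in untreated replicate 3, where ALCAM had 307 counts. The 5 genes most like ALCAM were selected for this pattern, so their agreement with it is no result.

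F11R, the junctional member, was low in both groups. F11R (ENSG00000158769; chromosome 1, 160995211 to 161021343, minus strand) had 26, 20 and 31 untreated and 19, 12 and 17 treated counts. The means were 6.31 ± 1.02 and 4.33 ± 1.45 CPM (SD, n = 3 each), and the groups overlapped. The log2 fold change was -0.56, with a 95% interval from -1.40 to 0.29 and an edgeR adjusted p of 0.497. The gene ENSG00000270149 covers 36.6% of its exonic bases on the same strand, though none of the last 500 bases at its 3′ end. A read that touches exons of both genes would be left uncounted by the default of the counting program, so the F11R values may be understated.

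In all, 2 of the 8 genes were called, both higher, 3 were tested without passing, and 3 did not reach the filter. Across all 10067 genes tested, 819 (8.14%) were called, 562 (5.58%) of them higher and 257 (2.55%) lower. With no filter beyond 1 count, 4 members were called, ICAM1, VCAM1 and ICAM4 higher and ALCAM lower, beside 6.93% of 19158 genes in either direction and 4.43% higher. The CPM of the groups did not overlap for 25.9% of tested genes, as for ICAM1 and VCAM1. ICAM1 held 28.4% ± 0.873 of the counts of the 8 genes before and 95.9% ± 1.46 after treatment (SD, n = 3 each). An exact permutation test, 2-sided, put this difference of 67.5 percentage points at p = 0.1, which is as low as 3 libraries against 3 can go. The share largely restates the ICAM1 rise and is no separate result. Per kb of exonic length the untreated shares spread more widely, at 28.5%, 30.4% and 36.1% for replicates 1, 2 and 3.

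Levels of different genes were ordered per kilobase of exonic length, although a direct RNA read is counted once per molecule whatever its length. In untreated cells ICAM3 stood first with 10.8 ± 2.18 CPM per kb, ahead of ICAM1 with 8.03 ± 2.64 and ALCAM with 4.66 ± 4.47 (SD, n = 3 each). The libraries of neighbouring genes overlapped from ICAM3 through to F11R, which had 1.25 ± 0.202 CPM per kb and lay above ICAM5, ICAM4 and VCAM1. In treated cells ICAM1 reached 347.8 ± 47.6 CPM per kb and was separated from ICAM3 with 9.23 ± 2.31, which was in turn separated from ALCAM with 2.03 ± 1.77. ALCAM overlapped ICAM4 with 1.33 ± 0.126, and F11R with 0.855 ± 0.286 overlapped VCAM1 with 0.579 ± 0.0698 CPM per kb. Parts of this order rest on the division by length. In CPM, with no division, ALCAM had the highest untreated mean (33.4), ahead of ICAM3 (30.2) and ICAM1 (27.7), with all 3 overlapping. In treated libraries ICAM3 (25.7 CPM) overlapped ALCAM (14.6 CPM), and ICAM4 (1.91 CPM) lay below both F11R (4.33 CPM) and VCAM1 (3.50 CPM).

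ICAM1, ICAM4, ICAM5 and ICAM3 lie close together on chromosome 19, and the genes around the 8 members within 50 kb were read out next. Of 29 such genes, 18 had no count and 9 had at least 10 counts over the 6 libraries. Of these 9, RAVER1 and ENSG00000274425 fell below the filter and were not tested. Among the rest only S1PR2, a sphingosine 1-phosphate receptor upstream of ICAM1, was called, and higher, beside 5.58% of all genes tested. It had 1, 3 and 4 untreated and 11, 14 and 10 treated counts (log2 fold change 2.16, SE 0.51, edgeR adjusted p 0.0326). S1PR2 passed the filter through the treated libraries alone. This call was lost in DESeq2 (adjusted p 0.0941) and without any 1 of 5 libraries, all but untreated replicate 3, with an edgeR adjusted p of up to 0.127. S1PR2 lies almost wholly within the span annotated for DNMT1 on the same strand, so its counts are uncertain. MRPL4, a mitochondrial ribosomal protein gene between S1PR2 and ICAM1, had a log2 fold change of -0.19 (edgeR adjusted p 0.788). TYK2, the Janus kinase of type I interferon receptors beside ICAM3, had 0.32 (edgeR adjusted p 0.475), and DNMT1 had 0.27 (edgeR adjusted p 0.688).

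**Figure D3:**
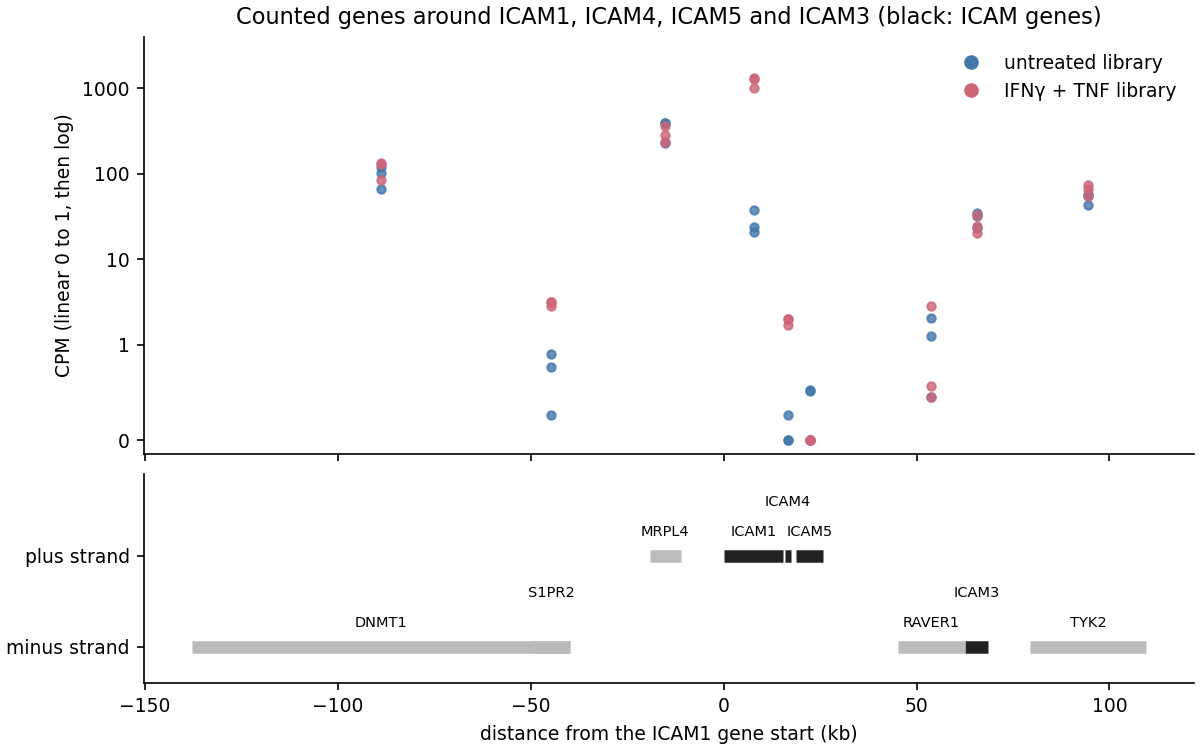
The 4 ICAM genes and 5 of the counted genes around them, placed by their distance in kb from the ICAM1 gene start, with CPM per library above (linear from 0 to 1, then logarithmic) and the strand below. The step between groups at ICAM1, from 27.7 to 1199 CPM on average, was not seen at its neighbour MRPL4, and ICAM4 and S1PR2 were separated at a few CPM.

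The genes whose profile over the 6 libraries was most like ICAM1 included HEXD, UBE2L6, IL18BP and RNF213. Their Pearson correlations with ICAM1 in log2 CPM ran from 0.9988 for RNF213 to 0.9995 for HEXD, over 6 libraries that form 2 separate groups. All 4 were called higher, which follows from their choice by likeness to a gene that differed between groups and is no separate result. UBE2L6, the conjugating enzyme for ISG15, had a log2 fold change of 3.93 and IL18BP, the secreted decoy for interleukin 18, one of 9.16, whereas HEXD, a hexosaminidase, had 1.41. IL18BP, with 1, 2 and 4 untreated counts, was tested through its treated libraries alone. For VCAM1 the 5 were CTSZ, FBXL14, MLKL, TRIM69 and ENSG00000279392, with correlations from 0.995 to 0.996. All 5 were called higher, which again follows from how they were chosen. With 1, 0 and 2 untreated counts, the untreated log2 CPM of VCAM1 was set largely by the prior count of 2 added before taking logs. MLKL, the effector of necroptosis, had a log2 fold change of 2.56 and CTSZ, a lysosomal cathepsin, one of 1.59.

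Of 118 distinct genes on 7 lists around the members, 72 were tested, 13 were called higher and 1 lower, beside 5.58% and 2.55% of all genes tested, the shares against which each list's counts stand. The median log2 fold change of those tested was 0.10, against -0.03 over all genes tested. In the list of transcription factors known at the ICAM1 and VCAM1 promoters, 7 of 13 tested genes were called higher and none lower, and the median was 1.36. The lists were drawn up with earlier results of these data known.

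Among these factors, IRF1, an interferon-induced activator, rose from 33.8 ± 5.90 to 1325 ± 155.0 CPM (n = 3 each, SD; log2 fold change 5.29, SE 0.22, edgeR adjusted p 3.35e-06). Its counts were 123, 157 and 128 in untreated and 5231, 5552 and 4312 in treated libraries. RELA, the main activating NF-kappaB subunit, rose from 100.9 ± 22.7 to 313.0 ± 63.9 CPM (log2 fold change 1.63, edgeR adjusted p 0.003). NFKB2 and CEBPB, subunit and partner of NF-kappaB, rose by 1.57 and 2.55, and IRF2, a relative of IRF1, rose by 2.25 on the log2 scale. RELB had a log2 fold change of 1.36 (edgeR adjusted p 0.0429), a call lost without untreated replicate 2 or any 1 of the treated replicates, with an adjusted p of up to 0.143. NFKB1, the p50 precursor gene, was separated between groups at 39.1 ± 4.40 and 60.8 ± 2.80 CPM (SD, n = 3 each) without passing (log2 fold change 0.64, edgeR adjusted p 0.0682), though it passed with a replicate block (0.0323). In the list REL was untested, and exons of another gene on its strand cover 99.6% of the last 500 bases at its 3′ end.

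The list of rolling and transmigration molecules had 10 of 20 genes tested, with 3 called higher, none lower and a median log2 fold change of 0.14. CX3CL1 and CXCL16 are the chemokines with a membrane anchor, which can hold leukocytes directly. CX3CL1 had 34, 58 and 69 untreated and 1179, 1169 and 1176 treated counts, a rise from 13.1 ± 3.72 to 311.7 ± 42.6 CPM (n = 3 each, SD; log2 fold change 4.56, SE 0.26, edgeR adjusted p 1.2e-05). CXCL16 rose from 0.485 ± 0.211 to 6.57 ± 2.93 CPM (log2 fold change 3.65, edgeR adjusted p 0.00358), and it too entered the test through its treated libraries alone. CD47, the don't-eat-me ligand of SIRPA that also takes part in transmigration, rose from 40.7 ± 13.3 to 280.7 ± 73.6 CPM (log2 fold change 2.78, edgeR adjusted p 0.000508). SELPLG, the selectin ligand PSGL-1, had 10, 10 and 7 untreated and 28, 28 and 16 treated counts without passing (log2 fold change 1.48, edgeR adjusted p 0.0555), though it passed with no filter beyond 1 count (0.0345) and with a replicate block (0.0156). The selectins SELE and SELP and the endothelial junction genes PECAM1 and CDH5 had 0 counts throughout. CD44, the hyaluronan receptor, was abundant at 317.5 ± 83.7 and 344.7 ± 45.4 CPM and did not pass.

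**Figure D4:**
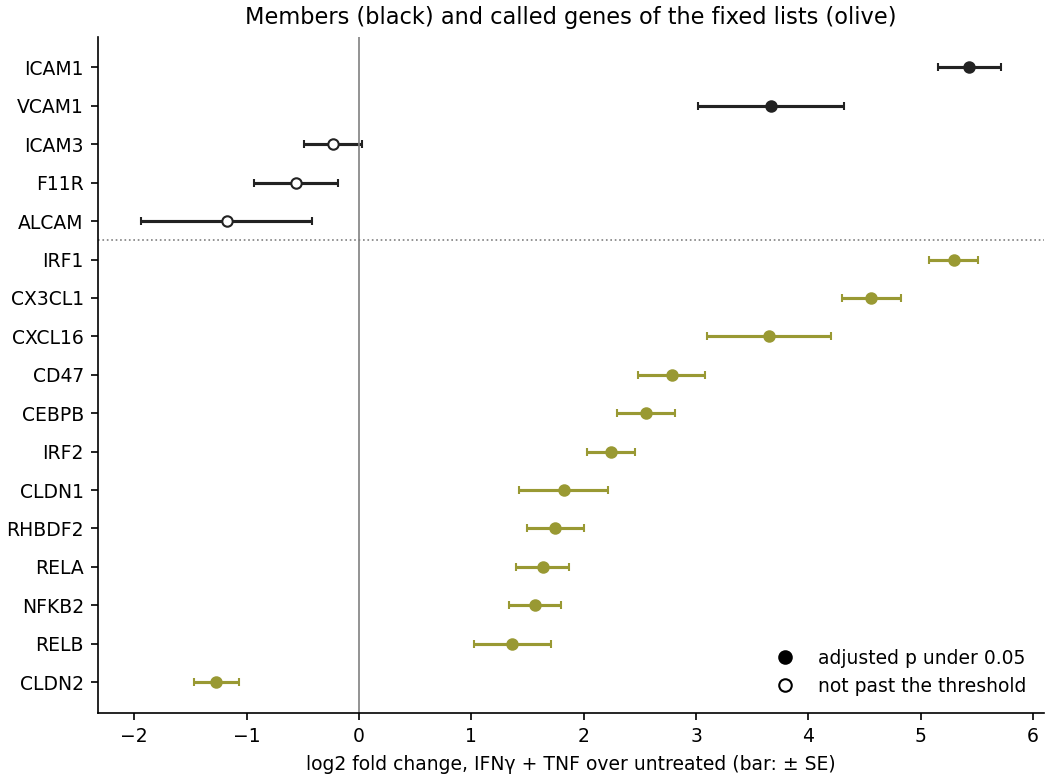
Log2 fold change (± SE) of the 5 tested members and of 12 of the 14 list genes past the threshold, without CEACAM1, whose untreated libraries were all at 0. ICAM1 at 5.43 was level with IRF1 at 5.29, and CLDN2 at -1.27 was the only list gene called lower in treated cells.

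For the receptors on the leukocyte side, 3 of 12 genes were tested and none passed in edgeR's test. ITGAL, which encodes the LFA-1 α chain, and ITGA4 had 0 counts in every library, and ITGB2, the LFA-1 β chain, had 30, 27 and 45 untreated and 41, 59 and 41 treated counts (edgeR adjusted p 0.31). Other immunoglobulin superfamily adhesion molecules had 14 of 25 genes tested and 1 called higher, with a median log2 fold change of -0.13. That gene was CEACAM1, an inhibitory homophilic receptor, with 0 counts in all untreated libraries and 34, 47 and 79 in treated ones. Its treated mean of 14.3 ± 7.09 CPM (SD, n = 3) was at least 19.1-fold higher than 3 counts per untreated library (edgeR adjusted p 0.00138). Like VCAM1, it passed the filter on low counts through the treated libraries alone. CD58, the LFA-3 ligand of CD2 on T cells, was at 7.63 ± 2.25 and 8.17 ± 3.19 CPM and did not pass (edgeR adjusted p 0.934).

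Among genes that anchor or cut the adhesion molecules, 1 was called. Of 16 cytoskeletal and membrane partners of ICAM1 and VCAM1, 14 were tested, none passed in edgeR's test and the median log2 fold change was 0.11. EZR, the membrane linker ezrin, had 0.07 (95% interval from -0.34 to 0.49), and its relative MSN, moesin, had 0.35 (95% interval from -0.0047 to 0.71). Of 11 sheddases and their regulators, 7 were tested and 1 was called higher. This was RHBDF2, the carrier iRhom2 of the sheddase ADAM17, which rose from 35.6 ± 4.94 to 119.7 ± 37.0 CPM (n = 3 each, SD; log2 fold change 1.75, edgeR adjusted p 0.00309). ADAM17 had 16, 29 and 88 untreated and 29, 72 and 45 treated counts, and ADAM10 had 29, 65 and 111 untreated and 25, 106 and 37 treated counts. Neither passed (edgeR adjusted p 0.888 and 0.883).

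Among the tight junction partners of F11R, a pair of claudins changed in opposite directions. Of 20 listed, 11 were tested, 1 was called higher and 1 lower, and the median log2 fold change was -0.05. CLDN2, the pore-forming claudin of proximal tubule, had 541, 418 and 679 untreated and 218, 216 and 197 treated counts (log2 fold change -1.27, SE 0.20, edgeR adjusted p 0.00482). CLDN1, a sealing claudin, had 34, 14 and 40 untreated and 56, 121 and 117 treated counts (log2 fold change 1.82, SE 0.40, edgeR adjusted p 0.0224). The CLDN1 call was lost without untreated replicate 2 or treated replicate 2 or 3, with an adjusted p of up to 0.105. TJP1, the scaffold ZO-1, had a log2 fold change of 0.11 (edgeR adjusted p 0.934).

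Library and marker facts bear on all of these values. Library totals ran from 3626000 to 4406296 counts. Nothing in the labels says how the replicate cultures were separated. The p-values rest on the spread between these libraries, estimated with information from other genes, and on no wider source of variation. All 10 markers of renal carcinoma epithelium were counted, with KRT8 at 1342 ± 371.3 and PAX8 at 144.8 ± 16.4 CPM in untreated cells. Of 10 endothelial markers, 7 were at 0 in every library, and the sum over the list ran from 0.772 to 1.36 CPM in untreated and from 0.899 to 5.68 CPM in treated libraries. Of 10 leukocyte markers, 6 were at 0, among them PTPRC and CD3E. The leukocyte sum of 308.2 to 396.3 CPM in untreated and 255.8 to 376.4 CPM in treated libraries was almost all LCP1, which many tumour lines express. Of 8 fibroblast markers, 5 were at 0, with sums of 56.6 to 76.6 and 28.1 to 49.4 CPM.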

How the data were processed

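The authors deposited raw counts of reads per gene for each of 6 libraries, made with featureCounts 2.0.1 in long-read, strand-specific mode on exons of Ensembl release 105 (GRCh38), per the file headers. The submitters' processing notes name featureCounts 2.0.0, minimap2 2.24 and SAMtools 1.16. The reads came from 500 ng of poly(A) RNA sequenced for 72 h and had a quality above 7, per the labels and design text. The file headers carry the word dmso for every library, and groups were taken from the sample titles instead. Symbols came from a gene name table for 61369 identifiers and from GENCODE 29 for 159 more.

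Counts were tested with edgeR 4.0.16 in R 4.3.3 (quasi-likelihood F test, group as the sole term, TMM, filterByExpr, Benjamini-Hochberg adjustment over all genes, threshold 0.05), and 95% intervals use its total degrees of freedom. SE was taken as |log2 fold change| over the root of F. Log2 CPM for correlations used a prior count of 2. On simulated data for 10067 genes, edgeR recovered 27 of 100 genes changed by 1 and 83 of 100 changed by 2 on the log2 scale, with 4 false calls. DESeq2 1.42.0 and limma 3.58.1 voom, 2 other scalings, 2 other filters, a replicate block and leaving out each library were alternatives.

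No library repeated another of its group within sampling noise, the chi-square over its degrees of freedom being 3.48 or more. It was 3.48 for untreated replicates 1 and 2, but 24.7 and 21.5 for untreated replicate 3 with replicates 1 and 2. Among treated replicates it ran from 10.3 to 15.9. The members and lists were chosen with earlier results of these data known. Genes named were all members, list genes past the threshold, 13 list genes set by name, neighbours within 50 kb with at least 10 counts, and the 5 most similar profiles. Results for some genes under this rule are not reported here.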

Additional observations from a re-analysis of the deposited data

How the results depend on the processing

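ICAM1 and VCAM1 were called higher under all 13 alternatives, with log2 fold changes from 5.30 to 5.73 and from 3.17 to 4.44. These alternatives reuse the same 6 libraries or a part of them. VCAM1 passed the count filters through its treated libraries alone, so its repeated calls are no separate support. Leaving out 1 library brought its edgeR adjusted p up to 0.0482. The calls among the 8 genes numbered 2 throughout, except 3 with a filter of 1 CPM in 3 libraries and 4 with no filter beyond 1 count, where ICAM4 and ALCAM were added. That fit called 1328 genes in all, on more genes tested and with infinite prior degrees of freedom. Scaling to library totals called 852 genes, 489 of them higher, with a median log2 fold change of -0.13. List genes called ranged from 12 to 19. ICAM1's share differed by 64.4 percentage points per kb of exonic length. Leaving out each library in turn gave between 455 and 1178 genes. There were 1178 without untreated replicate 3, 465 without untreated replicate 2 and 455 without treated replicate 3. Of genes not past the threshold, EZR was at -0.026 and TJP1 at -0.013 with library totals, and ITGB1 at 0.0087 in limma voom. Without 1 library the ranges were -0.047 to 0.18 for EZR, -0.12 to 0.74 for TJP1, -0.70 to 0.66 for ITGB1, -0.077 to 0.33 for CD44, -0.84 to 0.20 for ADAM10 and -0.11 to 1.09 for ADAM17. The cause was not tested.

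With the replicate block 1512 genes were called and the members called were still ICAM1 and VCAM1, while SELPLG (adjusted p 0.0156) and NFKB1 (0.0323), of the genes named, gained a call. Correlations of deviations between same-numbered libraries were 0.651, -0.0037 and 0.374 for numbers 1, 2 and 3, so the numbers were not taken as pairs, and not every library correlated best with its own number. Depth limits VCAM1, ICAM4, ICAM5 and ICAM2, where 3 counts are a large part of the signal.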

Other observations

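Some marker genes of the line itself and of other cell types differed between the groups. VIM, the mesenchymal filament vimentin, rose from 4594 ± 309.0 to 7279 ± 902.5 CPM (n = 3 each, SD; log2 fold change 0.66, edgeR adjusted p 0.0273). The renal lineage factor PAX8 had a log2 fold change of -0.79 and the keratin gene KRT19 one of -1.08, with edgeR adjusted p of 0.0316 and 0.00995. The receptor gene PDGFRB went from 10.3 ± 0.863 to 2.71 ± 0.126 CPM (log2 fold change -1.91, edgeR adjusted p 0.00491). CSF1R, the macrophage colony-stimulating factor receptor, had 22, 21 and 13 untreated and 5, 5 and 4 treated counts (log2 fold change -1.90, edgeR adjusted p 0.0314). The calls of these marker genes were not followed under the alternatives, so their stability was not tested. Outside the marker lists, CD34, a sialomucin of endothelium and blood progenitors, had 1, 0 and 1 untreated and 3, 9 and 8 treated counts. CD34 fell below the filter and was untested.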
